A study of Mus musculus with 20 samples.

Results

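Neurons that release glutamate load it into synaptic vesicles, retrieve it or its precursor glutamine across the plasma membrane, and metabolise it in mitochondria. The expression of 7 genes of this cycle was followed in the brain of mice without the microRNA gene Mir324: the vesicular glutamate transporters Slc17a6 (VGLUT2), Slc17a7 (VGLUT1) and Slc17a8 (VGLUT3), the plasma membrane glutamate transporter Slc1a1 (EAAT3), the mitochondrial enzyme glutamate dehydrogenase Glud1, and the glutamine transporters Slc38a1 (SNAT1) and Slc38a3 (SNAT3). The genes were chosen by their role in the cycle, with earlier results of these data known. Their transcripts were summed to 1 value per gene, which gave 7 of the 35580 genes in the tables.

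RNA-seq was performed on hippocampus and neocortex of 13.5 month old male mice, with 5 libraries in each of the 4 groups WT hippocampus, miR-324-null hippocampus, WT neocortex and miR-324-null neocortex. The labels give the strain C57BL/6J for all samples and the genotypes wild-type control and miR-324-null. The null allele is a global CRISPR/Cas9 deletion, carried by all cell types, and the founders were of mixed C57BL/6 and CBA/ca origin before they were bred to C57BL/6J. Each library is a bulk homogenate of a dissected region. A lower value in bulk tissue can therefore come from fewer cells of a type or from less RNA per cell, and these cannot be told apart. Hippocampus and neocortex of the same number were not stated to come from the same mouse.

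Glutamate in the forebrain is packaged mainly by VGLUT1 in cortical and hippocampal pyramidal cells and by VGLUT2 in thalamic and other subcortical projection neurons, while VGLUT3 is found in scattered cells such as some Cck-positive interneurons and serotonergic fibres. After release, most glutamate is taken up by astrocytes, converted to glutamine and exported through transporters that include SNAT3. Neurons import glutamine through transporters that include SNAT1 and convert it back to glutamate, and EAAT3 takes up glutamate on the neuronal side.

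The tissue labels were checked first. Of 13 genes that mark hippocampal fields, 12 were higher in WT hippocampus than in WT neocortex, and of 13 genes of neocortical excitatory neurons 9 were lower and 1 was higher. In miR-324-null mice 11 of the 13 hippocampal field genes were higher in hippocampus, with a median log2 difference of 1.44 against 1.83 in WT. Between the neocortical genotypes 0 of 12 field genes passed, but their median log2 difference was 0.45, and their sum was 516 to 655 CPM in miR-324-null and 484 to 554 CPM in WT neocortex. The part of this in the tissue differences of miR-324-null mice was not tested. Some libraries stood apart. The summed level of 7 choroid plexus genes (as CPM, counts scaled to a common library total) reached 4540 CPM in WT hippocampus replicate 3, 3891 CPM in miR-324-null hippocampus replicate 5 and 808 CPM in miR-324-null neocortex replicate 2, against at most 141 CPM in the other 17 libraries. The summed level of 9 striatal genes was 235 to 733 CPM in miR-324-null neocortex against 152 to 425 CPM in WT neocortex. Of 9 oligodendrocyte genes 0 passed in any comparison. Library depth was 12752439 to 19617765 estimated counts. Mature miR-324 was not measured by these mRNA libraries, and the genotype labels could not be checked on the deleted gene.

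The deletion removes 2 mature miRNAs, which pair with mRNAs mainly through bases 2 to 8, the seed. The mouse sequences from RefSeq (GRCm38.p6) are shown 5′ to 3′ with the seed in capitals, because the sites searched in the 7 genes are the complement of these bases. The 5p arm lies at chr11:70012060-70012082 and the 3p arm at chr11:70012095-70012114, both on the plus strand.
mmu-miR-324-5p: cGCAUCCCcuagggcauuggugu
mmu-miR-324-3p: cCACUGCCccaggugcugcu

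The 3′ untranslated regions (3′UTRs) annotated in GENCODE vM21 for the protein-coding transcripts of the 7 genes were searched, on the transcript strand only, for GGGATGC, the complement of the 5p seed, and for GGCAGTG, the complement of the 3p seed. Of 20995 genes with an annotated 3′UTR, 7.769% held the 5p motif and 13.45% the 3p motif. Among the 7 genes, 1 held the 5p motif and 2 held the 3p motif, once each. The windows around these 3 matches have the motif in capitals; they read 5′ to 3′ along the transcript, and a final lower-case a after the motif makes the match in Slc1a1 an 8-base one.
Slc38a1: ctaaggtctgtggtGGGATGCc
Slc17a7: cctctagcctgagcGGCAGTGt
Slc1a1: tggttctccttagtGGCAGTGa

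The motif in Slc38a1 lay at chr15:96573501-96573507 (minus strand), base 3204 of a 3′UTR of 5293 bases that transcripts Slc38a1-201 and Slc38a1-202 share. The motif in Slc17a7 lay at chr7:45175108-45175114 (plus strand), base 64 of the 1098 bases of the 3′UTR of Slc17a7-201. The motif in Slc1a1 lay at chr19:28913822-28913828 (plus strand), base 1922 of the 2060 bases of the 3′UTR of Slc1a1-201. Shorter annotated 3′UTRs of Slc38a1-203, Slc38a1-207 and Slc17a7-202 did not hold these letters, and neither motif was found in the annotated 3′UTRs of Slc17a6, Slc17a8, Glud1 or Slc38a3. A match describes letters only, and binding was not measured.

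The 7 genes covered a wide range of levels on the TPM scale, on which transcript counts are corrected for length and scaled to a common total so that genes can be compared within a library. Slc17a7 was highest in every group, with a mean of 810 ± 31.5 TPM (SD, n = 5) in WT hippocampus and 779 ± 38.0 TPM in WT neocortex, where it ranked 101 and 96 among all genes detected. Glud1 followed with 156 ± 15.2 TPM in WT hippocampus and 157 ± 9.26 TPM in WT neocortex. The next 3 genes changed their order between the tissues. In WT hippocampus the order was Slc1a1 (72.6 ± 7.45 TPM), Slc38a3 (57.9 ± 3.89 TPM) and Slc38a1 (36.4 ± 1.97 TPM), and the ranges of Slc1a1 and Slc38a3 overlapped. In WT neocortex it was Slc38a3 (67.0 ± 4.67 TPM), Slc38a1 (48.9 ± 4.88 TPM) and Slc1a1 (48.7 ± 5.56 TPM), and the ranges of the last pair overlapped. Slc17a6 and Slc17a8 were lowest, at 11.1 ± 6.11 and 1.38 ± 0.181 TPM in WT hippocampus and at 10.04 ± 2.99 and 1.18 ± 0.237 TPM in WT neocortex.

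**Figure D1:**
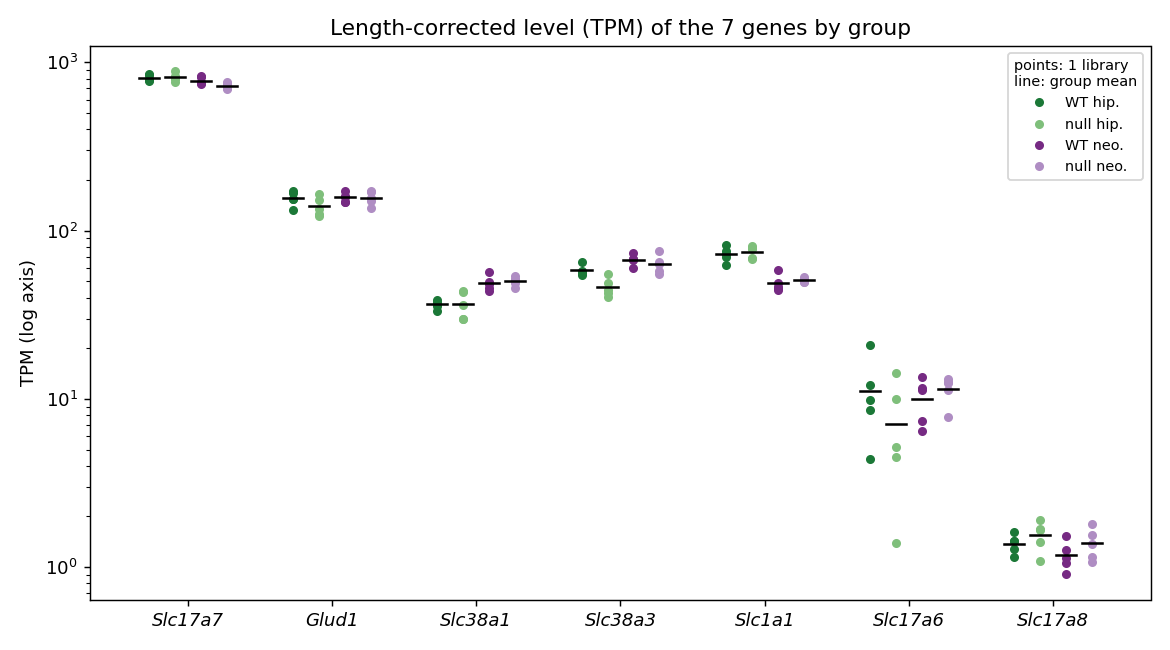
TPM of the 7 genes on a log axis, 1 point per library and a line at each group mean, for WT and miR-324-null hippocampus (hip.) and neocortex (neo.). Slc17a7 lies above all other members in all 20 libraries, Slc17a8 lies at 0.904 to 1.90 TPM, and Slc1a1 lies above Slc38a1 in hippocampus but beside it in neocortex.

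Each gene was then compared between genotypes within a tissue and between tissues within a genotype. Values are given as CPM after trimmed-mean scaling, fold changes on the log2 scale with their standard error (SE), and p-values from edgeR's quasi-likelihood test, adjusted by Benjamini and Hochberg over all genes tested. An adjusted p of at most 0.05 counted as a change. Between miR-324-null and WT mice, 0 of 7 genes passed in hippocampus, where 0.115% of the 14796 genes tested passed, and 0 of 7 in neocortex, where 0.315% of 14930 passed. At an unadjusted p under 0.05 there was 1 of the 7 in hippocampus (Slc38a3), where 11.1% of all genes were under it, and 1 of the 7 in neocortex (Slc17a7), where 12.2% were, which is near the background. DESeq2 called Slc38a3 in hippocampus, where it called 141 of 16961 genes. It called no member in neocortex, where it called 241 of 15818 genes. Between hippocampus and neocortex, 2 of 7 passed in WT mice, where 36.1% of 14894 genes passed, and 4 of 7 in miR-324-null mice, where 27.4% of 15033 passed. A test of whether the tissue difference changed with genotype called 0 of 7 genes, against 0.0195% of 15391 genes, and 1 of the 7, Slc38a3, had an unadjusted p under 0.05 in it, as did 5.57% of all genes.

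The individual libraries gave a similar picture. The WT and miR-324-null hippocampus did not overlap for 1 of the 7 genes, Slc38a3, where 2.55% of all genes did not overlap. In neocortex the genotypes overlapped for all 7 genes, where 2.30% of genes did not. The tissues did not overlap for 2 genes in WT mice (26.5% of all genes) and for 4 in miR-324-null mice (21.1% of all genes), the same genes that passed the test.

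**Figure D2:**
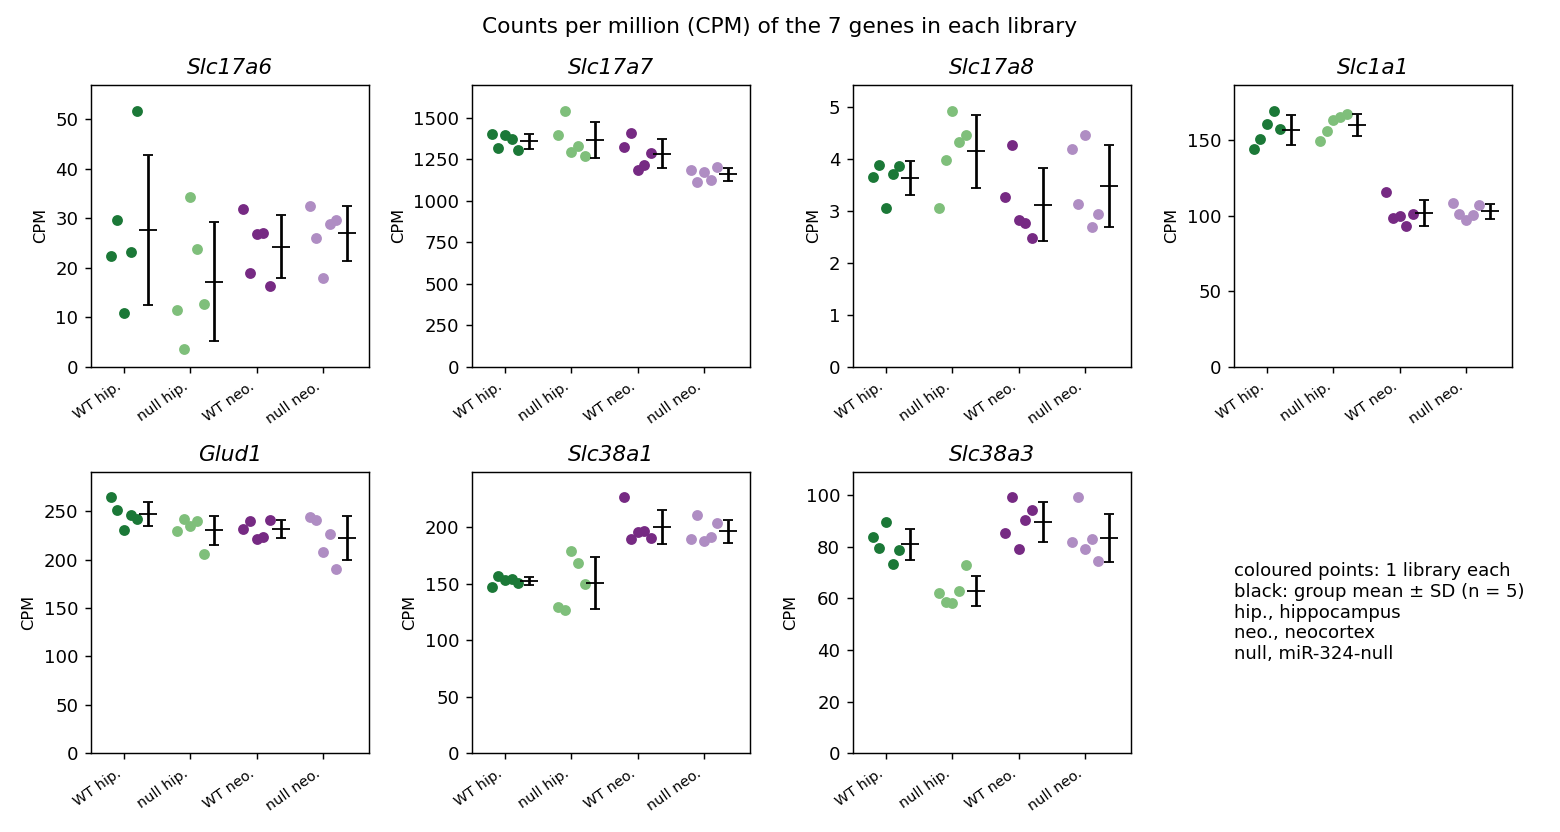
CPM of each gene in the 20 libraries, with 1 coloured point per library and the group mean ± SD (n = 5) in black; hip. is hippocampus, neo. is neocortex and null is miR-324-null. Slc1a1 is higher and Slc38a1 lower in all hippocampal than in all neocortical libraries, Slc38a3 is 58.4 to 72.8 CPM in miR-324-null hippocampus against at least 73.3 CPM in WT hippocampus, and Slc17a6 spreads from 3.60 to 51.7 CPM in hippocampus.

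**Figure D3:**
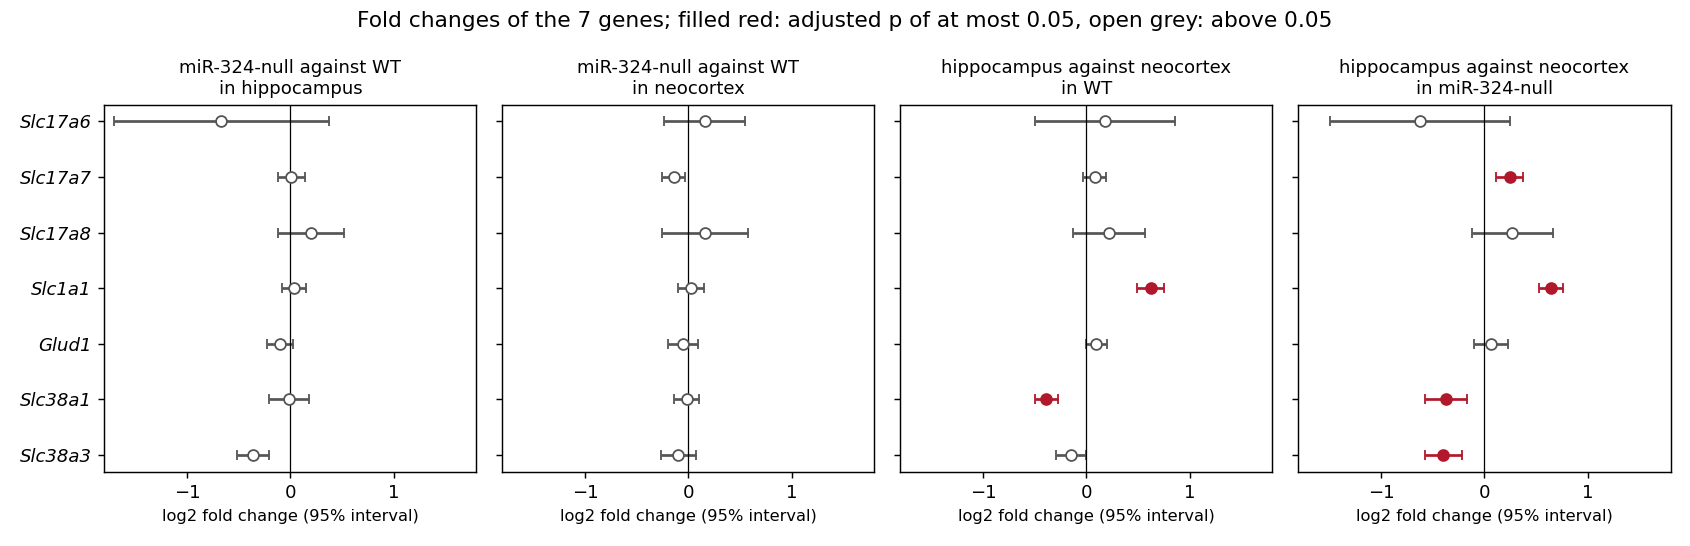
Log2 fold changes of the 7 genes with 95% intervals in the 4 comparisons; filled red points passed an adjusted p of 0.05 and open grey points did not. Positive values mean higher in miR-324-null mice in the 2 left panels and higher in hippocampus in the 2 right panels. The interval of Slc17a6 in hippocampus runs from -1.71 to 0.38, the widest shown.

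Slc17a7 encodes VGLUT1, the vesicular transporter of cortical and hippocampal pyramidal cells, and lies at chr7:45163949-45176142 (GRCm38, plus strand). In hippocampus it was measured at 1399, 1320, 1397, 1371 and 1305 CPM in the WT libraries and at 1395, 1544, 1294, 1330 and 1268 CPM in the miR-324-null libraries. In neocortex it was measured at 1326, 1409, 1184, 1217 and 1287 CPM in WT and at 1185, 1111, 1173, 1123 and 1205 CPM in miR-324-null. The hippocampal groups overlapped almost fully, while in neocortex 4 of the 5 WT libraries lay above every miR-324-null library. The genotype difference in hippocampus was 0.01 on the log2 scale (SE 0.060, 95% interval -0.12 to 0.14, adjusted p = 0.979). In neocortex Slc17a7 was 1160 ± 40.5 CPM in miR-324-null against 1285 ± 89.2 CPM in WT, a log2 difference of -0.14 (SE 0.051, unadjusted p = 0.0162, adjusted p = 0.290), which did not pass. By transcript, this difference was -0.05 for the protein-coding Slc17a7-201 (SE 0.097, adjusted p = 0.984). It was -0.48 for Slc17a7-204, a transcript with a retained intron (SE 0.239, adjusted p = 0.819).

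Slc17a7 was higher in hippocampus than in neocortex of miR-324-null mice, by 0.25 on the log2 scale (SE 0.060, adjusted p = 0.00870). In WT mice the same comparison gave 0.08 (SE 0.051, adjusted p = 0.241), and the difference between these 2 values, 0.16, did not pass (adjusted p = 0.890). By transcript, the tissue difference in miR-324-null mice was 0.14 for the protein-coding Slc17a7-201 (SE 0.089, adjusted p = 0.444). For Slc17a7-204, which retains an intron, it was 0.70 (SE 0.211, adjusted p = 0.0856). The call for the gene was therefore not shown for its protein-coding transcript. The striatal genes, whose summed level was 116 to 162 CPM in hippocampus, were highest in the miR-324-null neocortex: 0 of 9 passed between genotypes there, with a median log2 difference of 1.06, and 9 of 9 were lower in miR-324-null hippocampus than in miR-324-null neocortex, against 2 of 8 in WT. Of 8 other excitatory neuron genes 0 passed between genotypes in neocortex, with a median of -0.17 and sums of 5497 to 6698 CPM in WT and 4921 to 5945 CPM in miR-324-null. The part of other tissue in the Slc17a7 values was not tested. Without the 3 miR-324-null neocortical libraries above 400 CPM of striatal genes, which left 2 against 5 hippocampal ones, the difference in miR-324-null mice was 0.25 (SE 0.095, adjusted p = 0.128).

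VGLUT1 made up nearly all vesicular glutamate transporter mRNA on the TPM scale. Its share of the summed TPM of the 3 genes was 98.5 ± 0.794% in WT hippocampus, 98.9 ± 0.655% in miR-324-null hippocampus, 98.6 ± 0.360% in WT neocortex and 98.3 ± 0.299% in miR-324-null neocortex. The share ranged from 97.2 to 99.7% over the 20 libraries.

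Slc17a6 encodes VGLUT2 and lies at chr7:51622006-51671119 (plus strand), on the same chromosome as Slc17a7. In hippocampus it was measured at 22.4, 29.7, 10.8, 23.2 and 51.7 CPM in the WT libraries and at 11.5, 3.60, 34.3, 23.8 and 12.6 CPM in the miR-324-null libraries. In neocortex it was measured at 31.8, 19.0, 26.8, 27.0 and 16.3 CPM in WT and at 32.5, 26.0, 17.8, 28.7 and 29.5 CPM in miR-324-null. The groups overlapped in both tissues, and the hippocampal libraries spread far more widely than the neocortical ones. The highest hippocampal library was WT replicate 5 and the lowest miR-324-null replicate 2. The log2 difference between genotypes was -0.67 in hippocampus (SE 0.480, adjusted p = 0.641) and 0.16 in neocortex (SE 0.181, adjusted p = 0.786). The hippocampal interval, -1.71 to 0.38, would hold a large fall as well as a small rise, so these libraries bound the change only loosely.

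The summed level of 17 thalamic and habenular genes, regions rich in VGLUT2 neurons, was 163 to 212 CPM in WT hippocampus, 136 to 176 CPM in miR-324-null hippocampus, 208 to 223 CPM in WT neocortex and 196 to 253 CPM in miR-324-null neocortex. These genes did not move together: the 13 tested between hippocampal genotypes ran from -1.18 to 0.59 on the log2 scale, and 0 passed. Six3 is also among the striatal genes. The hippocampal library with the most Slc17a6 also had the highest sum of the 17 genes, at 212 CPM, and the library with the least Slc17a6 had the lowest, at 136 CPM. Between these extremes the order differed: WT replicate 3 and miR-324-null replicate 5, with 10.8 and 12.6 CPM of Slc17a6, both had sums of 176 CPM, above the 162 and 156 CPM of miR-324-null replicates 3 and 4, with 34.3 and 23.8 CPM. Whether such tissue had a part in the spread of Slc17a6 was not tested. The ratio of Slc17a7 to Slc17a6 on the TPM scale ran from 37.2 in WT hippocampus replicate 5 to 635 in miR-324-null hippocampus replicate 2.

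Across the 20 libraries, after the mean of each group was taken away from the log2 CPM, the gene most like Slc17a6 of 14357 compared was Rxfp1, a receptor for the hormone relaxin (Pearson r = 0.92). Bglap3 (r = 0.91) and Ankrd34c (r = 0.89) followed. Within tissues, Ankrd34c had r = 0.95 in hippocampus and 0.32 in neocortex, so its likeness lay mainly in the hippocampal libraries. Rxfp1 was at 7.80 to 33.6 CPM in WT hippocampus and 4.74 to 39.1 CPM in miR-324-null hippocampus. Among the other members, Slc17a6 was most like Slc38a1 (r = 0.70) and least like Slc17a7 (r = -0.62). These values describe 20 libraries that share dissection and depth, and they were picked as the highest of many.

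**Figure D4:**
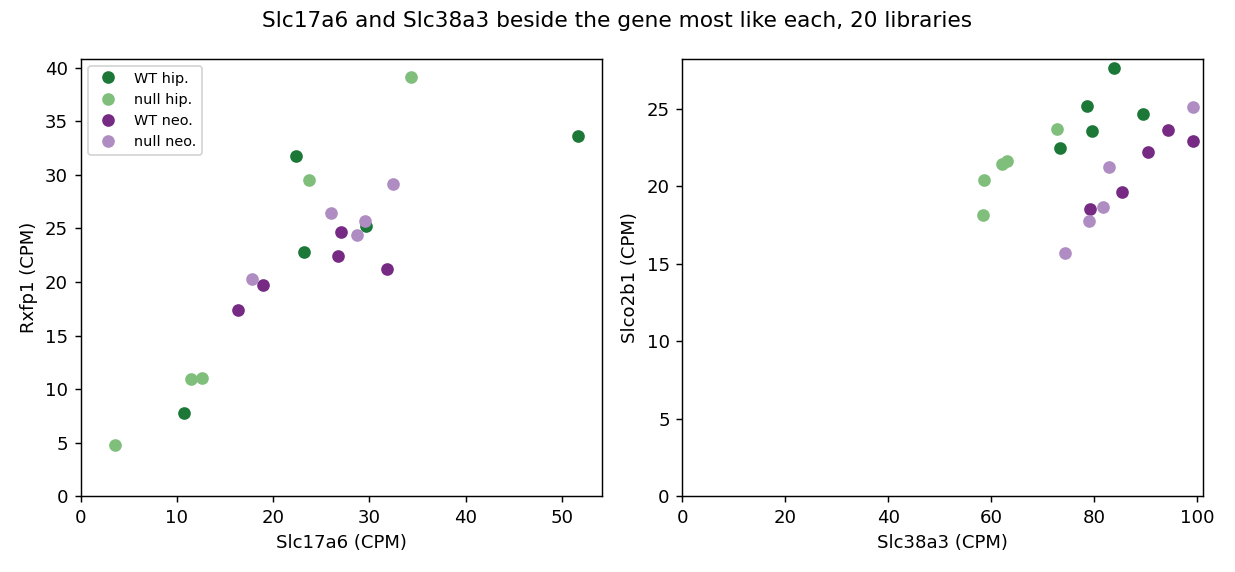
CPM of Slc17a6 against Rxfp1 and of Slc38a3 against Slco2b1 in the 20 libraries, 1 point per library, coloured by group. Slc17a6 and Rxfp1 are low together in 4 hippocampal libraries, with Slc17a6 at 3.60 to 12.6 CPM, and the miR-324-null hippocampus lies to the left of the other groups for Slc38a3.

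Slc17a8 encodes VGLUT3 and lies at chr10:89574020-89621253 (minus strand). It rested on 36 to 80 estimated counts per library, the fewest of the 7 genes. In hippocampus it ran from 3.05 to 3.87 CPM in WT and from 3.04 to 4.92 CPM in miR-324-null, and in neocortex from 2.47 to 4.27 CPM in WT and from 2.69 to 4.46 CPM in miR-324-null. All 4 ranges overlapped. Of 10 interneuron genes, among them Cck and Vip, 0 passed between genotypes, with medians of 0.16 in hippocampus and 0.13 in neocortex. The log2 difference of Slc17a8 between genotypes was 0.20 in hippocampus (SE 0.147, 95% interval -0.12 to 0.51) and 0.16 in neocortex (SE 0.192, 95% interval -0.26 to 0.57), and that between hippocampus and neocortex was 0.22 in WT mice (SE 0.161, adjusted p = 0.326). A stretch of the transcript Slc17a8-201 matches 13 other genes at 95% identity or more over 104 to 144 bases, so a few of its reads could have been shared with them.

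Slc1a1 encodes EAAT3, the neuronal transporter that takes glutamate back into cell bodies and dendrites, and lies at chr19:28835049-28913960 (plus strand). In hippocampus it was measured at 144, 151, 161, 170 and 158 CPM in WT and at 149, 156, 164, 165 and 167 CPM in miR-324-null. In neocortex it was measured at 116, 98.6, 99.8, 93.3 and 101 CPM in WT and at 109, 101, 97.0, 101 and 107 CPM in miR-324-null. Every hippocampal library lay above every neocortical one, and the genotypes overlapped within each tissue.

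In WT mice Slc1a1 was 157 ± 9.79 CPM in hippocampus and 102 ± 8.50 CPM in neocortex, a log2 difference of 0.62 (SE 0.061, adjusted p = 3.55e-06), or 1.54-fold. In miR-324-null mice the difference was 0.65 (SE 0.053, 1.57-fold, adjusted p = 4.19e-06), and the tissue difference was not shown to depend on genotype (0.02, SE 0.081, adjusted p = 0.994). The genotype difference was 0.03 in hippocampus (95% interval -0.09 to 0.15) and 0.02 in neocortex (95% interval -0.10 to 0.15). Slc1a1 is the member whose 3p seed match lies near the end of the 3′UTR. The protein-coding transcript Slc1a1-201 carried 93.1 ± 1.09% of the gene's TPM in WT hippocampus and 90.7 ± 2.78% in WT neocortex. Tested as a transcript, it was higher in WT hippocampus by 0.66 (SE 0.066, adjusted p = 0.000154). The minor transcript Slc1a1-202 shares 2636 bases with the opposite-strand gene 4430402I18Rik, which had a mean of 54.8 estimated counts. The library kit keeps strand, but whether the quantification used it was not stated.

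Glud1 encodes glutamate dehydrogenase, the mitochondrial enzyme that interconverts glutamate and 2-oxoglutarate, and lies at chr14:34310727-34345265 (plus strand). In hippocampus it ran from 231 to 264 CPM in WT and from 205 to 242 CPM in miR-324-null, and in neocortex from 221 to 241 CPM in WT and from 190 to 243 CPM in miR-324-null. All 4 ranges overlapped. The largest of its genotype differences was -0.10 in hippocampus (SE 0.057, 95% interval -0.23 to 0.02, adjusted p = 0.532), and the tissue difference in WT mice was 0.10 (SE 0.046, adjusted p = 0.131). The 95% intervals of its 4 differences lay between -0.23 and 0.23, and none passed. A processed pseudogene, Glud-ps, matches 656 bases of Glud1-201 at 97.6% identity, so reads of that stretch are hard to assign.

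The short non-coding transcript Glud1-202, of 699 bases, took 21.8 ± 8.76% of the gene's TPM in WT hippocampus and 26.9 ± 6.03% in WT neocortex. Because it is short, small numbers of reads give it a large share of TPM, and the share of the protein-coding Glud1-201 (75.5 ± 8.20% in WT hippocampus and 69.9 ± 5.06% in WT neocortex) moves against it. Neither transcript passed in any comparison.

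Slc38a1 encodes SNAT1, which brings glutamine into neurons, and lies at chr15:96571418-96642913 (minus strand). In hippocampus it was measured at 147, 157, 153, 154 and 150 CPM in WT and at 130, 127, 179, 169 and 150 CPM in miR-324-null. In neocortex it was measured at 226, 190, 196, 197 and 190 CPM in WT and at 189, 211, 187, 191 and 203 CPM in miR-324-null. All hippocampal libraries lay below all neocortical ones. The WT hippocampus was tightly grouped and the miR-324-null hippocampus spread on both sides of it, with an SD of 23.1 CPM against 3.82 CPM. Over all genes, miR-324-null hippocampus replicates 1 and 2 were alike, and so were replicates 3 and 4. The mean chi-square of counts per gene was 4.90 and 5.64 within these pairs and 15.0 to 16.5 across them. The low and high Slc38a1 values followed this split, so the spread was not particular to this gene.

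Slc38a1 was lower in hippocampus than in neocortex by 0.39 on the log2 scale in WT mice (a difference of -0.39, SE 0.051, adjusted p = 4.83e-05) and by 0.37 in miR-324-null mice (-0.37, SE 0.093, adjusted p = 0.0101). In miR-324-null mice the difference was -0.34 (SE 0.111, adjusted p = 0.0503) in the 8 libraries not high in choroid plexus genes and -0.45 (SE 0.136, adjusted p = 0.0618) in the 7 not high in striatal genes, so the call was lost while the size stayed about as large. The genotype difference was -0.01 in hippocampus (SE 0.088, 95% interval -0.21 to 0.18) and -0.02 in neocortex (SE 0.055, 95% interval -0.14 to 0.10). Slc38a1 is the member with a 5p seed match, and the transcripts that hold it carried most of its TPM: Slc38a1-202 took 84.9 ± 4.52% in WT hippocampus and 83.8 ± 2.47% in WT neocortex, and Slc38a1-201 took 9.97 ± 3.86% and 10.2 ± 3.11%. Slc38a1-202 was lower in WT hippocampus than in WT neocortex (-0.36, SE 0.046, adjusted p = 0.000664), and its genotype differences, 0.02 and -0.04, did not pass.

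Slc38a3 encodes SNAT3, which astrocytes use to release glutamine, and lies at chr9:107650634-107669530 (minus strand). In hippocampus it was measured at 83.8, 79.5, 89.5, 73.3 and 78.7 CPM in WT and at 62.1, 58.6, 58.4, 63.1 and 72.8 CPM in miR-324-null. In neocortex it was measured at 85.4, 99.1, 79.1, 90.4 and 94.4 CPM in WT and at 81.7, 99.1, 79.0, 82.9 and 74.3 CPM in miR-324-null. All 5 miR-324-null hippocampi lay below all 5 WT hippocampi, with the nearest pair at 72.8 and 73.3 CPM, whereas the neocortical groups overlapped.

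The hippocampal means were 63.0 ± 5.84 CPM in miR-324-null and 81.0 ± 6.07 CPM in WT, a log2 difference of -0.36 (SE 0.072, 95% interval -0.52 to -0.21, 0.778-fold). The unadjusted p was 0.000260 and the adjusted p 0.100, so the gene did not pass. It did pass with DESeq2 (adjusted p = 0.00152) and when all 20 libraries shared 1 fit (adjusted p = 0.0412). These alternatives called 141 and 83 genes in all, against 17 in the main test. In simulated data for this comparison 11.4% of the calls of DESeq2 were false, against 5.98% of those of edgeR. Slc38a3 also passed without miR-324-null replicate 5, the highest of its group and 1 of the 2 hippocampal libraries rich in choroid plexus genes (-0.42, adjusted p = 0.0258). In neocortex the genotype difference was -0.10 (SE 0.079, adjusted p = 0.679), and the 2 genotype differences were not shown to differ (-0.26, SE 0.112, unadjusted p = 0.0317, adjusted p = 0.880).

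In each of the 3 groups that held a library rich in choroid plexus genes, that library had the highest Slc38a3: 89.5 CPM in WT hippocampus, 72.8 CPM in miR-324-null hippocampus and 99.1 CPM in miR-324-null neocortex. Without these 3 libraries the difference between the hippocampal genotypes was -0.38 (adjusted p = 0.0495). Of 10 astrocyte genes 0 passed between the hippocampal genotypes, their median log2 difference was -0.05, and their sum was 2595 to 3030 CPM in WT and 2523 to 2765 CPM in miR-324-null. Of 5 endothelial genes 0 passed, with a median of -0.23 and sums of 221 to 268 CPM in WT and 190 to 270 CPM in miR-324-null. The part of these cell types in the Slc38a3 values was not tested.

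Slc38a3 was lower in hippocampus than in neocortex of miR-324-null mice, by 0.40 on the log2 scale (a difference of -0.40, SE 0.083, adjusted p = 0.00346). In WT mice the difference was -0.15 (SE 0.067, adjusted p = 0.111), which passed only without WT neocortex replicate 3 (-0.18, adjusted p = 0.0489). The genes most like Slc38a3 across libraries were Slco2b1 (r = 0.86), an organic anion transporter, Cpt1a (r = 0.86), which carries fatty acids into mitochondria, and Pbxip1 (r = 0.85).

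The reads of Slc38a3 were split among close isoforms, and the split was unstable. Slc38a3-209 took 61.3 ± 15.5% of the gene's TPM in WT hippocampus, 69.1 ± 12.6% in miR-324-null hippocampus, 63.5 ± 11.5% in WT neocortex and 53.1 ± 25.3% in miR-324-null neocortex. Slc38a3-203, whose annotated 3′UTR has the same 773 bases, took 13.8 ± 17.2% and 6.81 ± 10.2% in WT and miR-324-null hippocampus and 23.7 ± 25.6% in miR-324-null neocortex. The SD of Slc38a3-203 came close to its mean or exceeded it in every group, so the lower gene total in miR-324-null hippocampus could not be traced to 1 isoform.

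**Figure D5:**
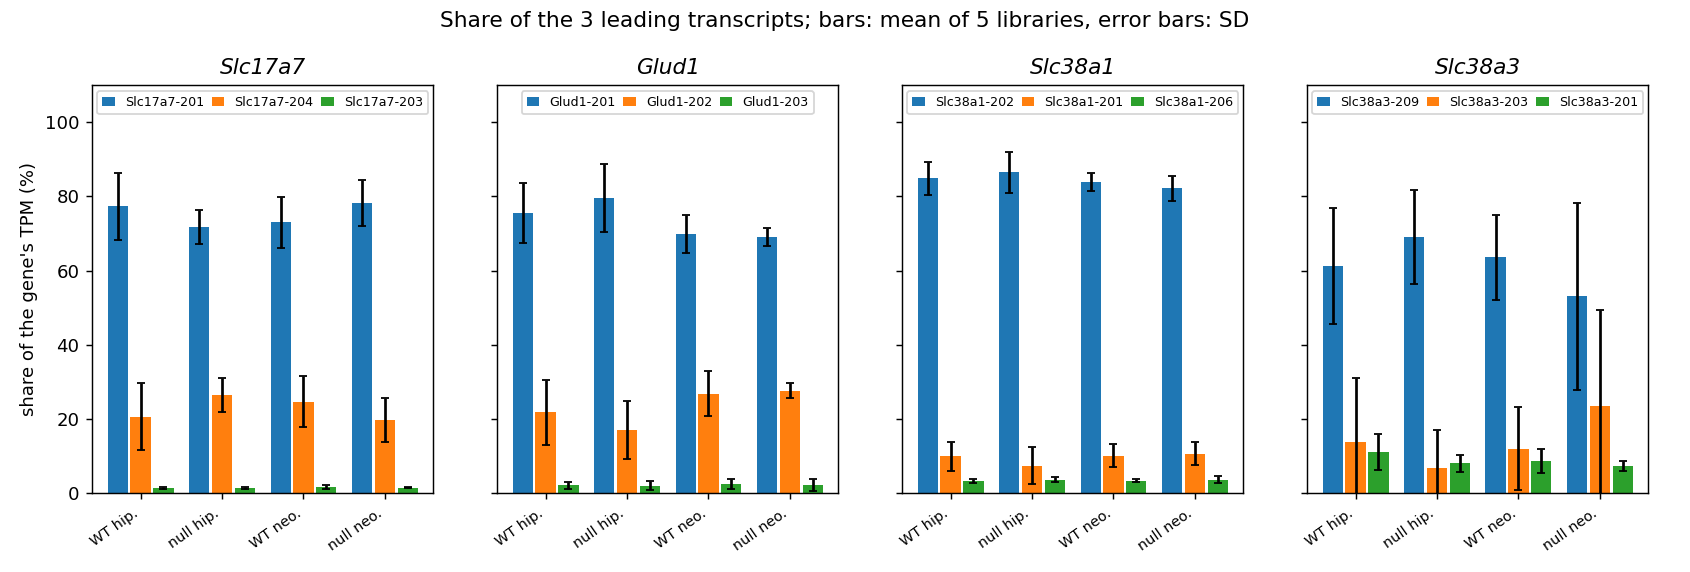
Mean share (%) of each gene's TPM held by its 3 leading transcripts in the 4 groups, with the SD over 5 libraries as error bars. Slc38a1-202 holds over 80% in each group, while Slc38a3-209 and Slc38a3-203 have SDs of 10.2 to 25.6 percentage points.

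Single transcripts of the 7 genes were tested over all transcripts. Between genotypes 0 member transcripts passed in hippocampus, where 0.0291% of 34338 transcripts did, and 0 in neocortex, where 0.0249% of 36164 did. Between tissues 2 passed in WT mice (Slc1a1-201 and Slc38a1-202), where 10.1% of all transcripts did, and 1 in miR-324-null mice (Slc1a1-201, 0.68), where 6.73% did. For Slc17a7 the protein-coding Slc17a7-201 held 77.4 ± 9.03% of TPM in WT hippocampus and 73.0 ± 6.91% in WT neocortex, and most of the rest was Slc17a7-204, a transcript with a retained intron (20.7 ± 9.15% and 24.7 ± 6.74%). Slc17a6 was read almost wholly as Slc17a6-201, at 99.6 ± 0.690% in WT hippocampus.

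The genes most like the other members were different for each. Slc17a7 was most like Atp9a (r = 0.88), Atp6v0e2 (r = 0.87), a subunit of the proton pump that energises vesicles, and Ube2l3 (r = 0.86). Slc1a1 was most like Vps26b (r = 0.84), Fam160a1 (r = 0.83) and Sec23a (r = 0.83), and Slc38a1 was most like Cpeb3 (r = 0.92), Snx30 (r = 0.90) and Trove2 (r = 0.90). Glud1 was most like S1pr1 (r = 0.88), I830077J02Rik (r = 0.87) and Gpc5 (r = 0.87), and Slc17a8 was most like Zfp626 (r = 0.81), Prep (r = 0.77) and Med19 (r = 0.75). These values pool both tissues. Within tissues, Trove2 with Slc38a1 had r = 0.97 in hippocampus and 0.64 in neocortex, and Prep with Slc17a8 had 0.49 and 0.90. Among pairs of members without Slc17a6, the highest r was 0.53, between Slc1a1 and Slc38a1.

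A further 34 genes that handle glutamate, glutamine or GABA were counted beside the 7. Of the 32 tested between genotypes, 0 passed in hippocampus and 0 in neocortex, with median log2 differences of 0.02 in both, against medians of 0.00 over all genes. Between tissues of WT mice, 5 of 31 were higher and 8 lower in hippocampus, with a median of -0.04, and in miR-324-null mice 2 of 32 were higher and 6 lower. Among the genes that passed in WT mice, the 4 largest differences were those of Gls2, a glutaminase (-0.67, SE 0.144, adjusted p = 0.00235), Slc25a22, a mitochondrial glutamate carrier (0.45, SE 0.043, adjusted p = 2.83e-06), Slc32a1, the vesicular GABA transporter (-0.39, SE 0.085, adjusted p = 0.00280), and Slc38a2, another neuronal glutamine transporter (-0.37, SE 0.052, adjusted p = 8.07e-05). Slc38a2 was 112 ± 7.45 CPM in WT hippocampus and 145 ± 6.64 CPM in WT neocortex, the direction also seen for Slc38a1.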

How the data were processed

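Total RNA was taken from hippocampus and neocortex of 20 samples, and per the labels libraries were made with a stranded mRNA kit. The authors quantified reads by pseudo-alignment with kallisto against the mouse GRCm38 (release 92) transcriptome, and deposited estimated counts and TPM per transcript for each sample. The submitters' processing notes name the build GRCh38, but all transcript identifiers are of mouse. Kallisto's version and strand setting were not given in the sources used here.

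Of 115270 transcripts, 113580 matched GENCODE vM21 (GRCm38) and were summed to 35580 genes. The other 1690 transcripts held 0.509 to 0.556% of counts and were left out. Estimated counts were rounded to whole numbers, filtered with filterByExpr, scaled by TMM and tested with edgeR (version 4.0.16, R 4.3.3) by the quasi-likelihood test, each comparison fitted on its own 2 groups and the interaction on all 20 samples. DESeq2 (version 1.42.0) was an alternative. Intervals are 95% intervals from the SE of the fit. Scripts were tested on simulated data: of 200 genes changed by 1 on the log2 scale in the hippocampal genotype comparison, over 14688 genes, edgeR recovered 86.5%, and of 200 such transcripts 23.5%, so a missing call for a transcript says little.

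The members and lists were chosen with earlier results of these data known. All 7 members are named. Of the 34 other glutamate handling genes, those that passed between genotypes and, of those that passed between WT tissues, the 4 with the largest change are named. For each member the 3 genes with the highest Pearson r of group-centred log2 CPM (prior count 2) are named, among genes with a mean of at least 1 CPM. Near-identical stretches were searched with BLAST (version 2.17.0) at 95% identity over at least 100 bases. Replicates of a group differed from each other by more than sampling noise. Nothing in the sources used here states that they were separate animals, so p-values measure the spread between these samples.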

Additional observations from a re-analysis of the deposited data

Results flagged for a closer look

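In groups of 5 samples, the highest and lowest CPM of each member were tested with Dixon's ratio against 0.71, which gave 2 flags in 28 tests, where chance gives about 1 in 20. Slc17a8 in WT hippocampus replicate 3 was low, at 3.053 CPM against 3.65 to 3.87 CPM in the other 4 libraries. Slc38a1 in WT neocortex replicate 1 was high, at 226.3 CPM against 190 to 197 CPM in the other 4 libraries.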

How the results depend on the processing

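Of the values of the 7 members, most kept their direction and side of the threshold under another scaling, no filter on low counts, DESeq2, transcript length offsets, all 20 samples in 1 fit, the replicate block and the omission of each library. The number of members passing between genotypes in hippocampus, 0, became 1 (Slc38a3) with DESeq2, with DESeq2 and length offsets (adjusted p = 0.0432), with all 20 samples in 1 fit and without the libraries high in choroid plexus genes, an alternative chosen after seeing the data, and was 0 to 1 on leaving out each library. Over its alternatives the adjusted p of Slc38a3 there ran from 0.00152 with DESeq2 to 0.416 with the replicate block. Apart from the block, which joins different mice by number, the highest was 0.262, with edgeR and length offsets. Between tissues of miR-324-null mice the number fell from 4 to 2 without the libraries high in striatal genes, also chosen after seeing the data, which left fewer samples; member transcripts numbered 1 to 2 on leaving out each library, with 2 without miR-324-null neocortex replicate 3. Values near 0 changed sign. For Glud1 between tissues of miR-324-null mice, 0.06 became -0.08744 with edgeR and -0.09446 with DESeq2 under length offsets, and the cause was not tested. The interaction of Slc17a8 became -0.02373 and -0.01539 under these offsets and -0.07316 without the choroid-high libraries, where that of Glud1 became 0.002784. Without the striatal-high libraries Slc38a1 became 0.03287 between genotypes in neocortex and -0.04647 in the interaction. On leaving out each library, Slc17a6 between WT tissues ran from -0.1616 to 0.3964, Slc17a7 between hippocampal genotypes from -0.03983 to 0.03349, and Slc1a1 between neocortical genotypes from -0.009587 to 0.07318. Slc38a1 ran from -0.08342 to 0.04132 between genotypes in hippocampus and from -0.0446 to 0.02813 in neocortex. The interactions ran from -0.09491 to 0.149 (Slc17a8), -0.03798 to 0.04665 (Slc1a1) and -0.06115 to 0.06616 (Slc38a1).

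Deviations from the group means were correlated over genes between samples of the same number. The values were -0.17 to 0.12 between genotypes, which are different mice, and -0.10 to 0.18 between tissues. In no comparison were all pairs over 0.1, so the samples were not treated as paired, though a shared mouse remains possible between tissues. Between tissues of miR-324-null mice, where a shared mouse is possible, all 5 correlations were above 0, up to 0.18, and 3 of 5 samples were most like their own number. With the replicate block 0 members passed between genotypes in either tissue and 2 and 4 between tissues, and Slc38a3 between hippocampal genotypes was -0.3639 (adjusted p = 0.416). WT and miR-324-null libraries come from different mice, so between genotypes the block joins libraries by number alone. Over all genes the count between hippocampal genotypes, 17, was 4 with the replicate block and 141 with DESeq2, and that in neocortex, 47, ran from 25, without the striatal-high libraries, to 566, without miR-324-null neocortex replicate 5. At 36 to 80 counts per library, depth limits Slc17a8 most.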
